A study of Rattus norvegicus with 6 samples.

Results

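The genes described here encode the nuclear subunits of the mitochondrial respiratory chain, its electron carrier cytochrome c and the ATP synthase, in rat dorsal root ganglia. Ganglia came from rats at day 7 after pSNL (3 libraries), the partial ligation of the sciatic nerve, in which a tight tie round part of the nerve injures some axons and spares others, or after a sham operation (3 libraries). Members were chosen by their RefSeq symbol (the Nduf, Sdh, Uqcr, Cox4 to Cox8, Cyc1, Cycs and Atp5 names) and had to be listed in at least 3 of the 6 files. This gave 88 members of the 14346 genes listed in at least 1 library: 34 complex I subunits, 7 complex I assembly factors, 4 subunits of complex II, 9 of complex III, 16 of complex IV, 17 of the ATP synthase, and Cycs. Ndufa4 and Ndufa4l2 carry complex I names and were counted with complex IV, where the Ndufa4 protein is now placed. The labels give no strain, sex or age and do not say whether a library is 1 animal or a pool. The p-values therefore measure the spread between libraries, which may be partly technical. Libraries held 4310643 to 4416121 estimated counts, and levels are given as CPM, counts scaled to a common library size.

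Complexes I and II pass electrons from NADH and succinate to ubiquinone, complex III passes them on to cytochrome c, and complex IV hands them to oxygen. Complexes I, III and IV pump protons across the inner membrane, and the ATP synthase uses their return to make ATP. Sensory neurons depend on this supply for ion pumping and for transport along their long axons. The catalytic centres of complexes I, III and IV and the proton channel of the ATP synthase also hold subunits encoded in mitochondrial DNA. None of those genes had a value in these files, so only the nuclear share is described.

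As a whole the nuclear genes were slightly lower after pSNL, mostly through pSNL replicate 2, and no single member passed edgeR's test. Of 86 tested members 0 had an adjusted p under 0.05 (edgeR quasi-likelihood test, Benjamini-Hochberg over all 11091 tested genes, of which 0.46% passed in either direction and 0.018% passed as lower). At an unadjusted p under 0.05, 12 members (14.0%) were lower and 0 were higher, against 6.07% lower and 9.41% higher among all tested genes. DESeq2 called 2 members as lower, Sdha and Atp5f1a (DESeq2 called 0.632% of its genes as lower). The fold change was negative for 78 of 86 members, against 50.6% of all tested genes, and the median log2 fold change was -0.12 (pSNL minus sham), against -0.0024 for all tested genes. The 95% interval of the fold change lay within 1.5-fold either way for 79 of 86 members and for 6165 of all 11091 tested genes. The median SE was 0.103 in members and 0.155 over all tested genes. In 19 of 86 members every pSNL value was under every sham value and in 0 above, where 10.4% of all tested genes were separated downward and 11% upward.

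The level of all members together was 14218, 12488 and 14662 CPM in pSNL replicates 1, 2 and 3, against 14941, 14975 and 15632 CPM in sham replicates 1, 2 and 3. Each pSNL library was below each sham library, and pSNL replicate 2 was the lowest by a wide margin. The median member differed from the sham mean by -0.069, -0.24 and 0.0024 in pSNL replicates 1, 2 and 3, against -0.03, -0.024 and 0.059 in sham replicates 1, 2 and 3 on the log2 scale. In pSNL replicate 2 all 86 tested members were below the sham mean, in pSNL replicate 1 57 and in pSNL replicate 3 41, and pSNL replicate 2 was the lowest of the 6 libraries for 70 members. Without that library the median log2 fold change was -0.032 and 52 of 86 members were negative. At an unadjusted p under 0.05 in edgeR's test there were then 5 members, and 6 (sham replicate 1) to 18 (pSNL replicate 3) without other single libraries. Over all tested genes the count past the adjusted threshold moved as well, from 5 to 217 with 1 library left out. These member counts are therefore not measured against a fixed background. Most of the general shift toward lower values thus rests on pSNL replicate 2, while a smaller group of members, described by complex, was lower in every pSNL library.

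**Figure D1:**
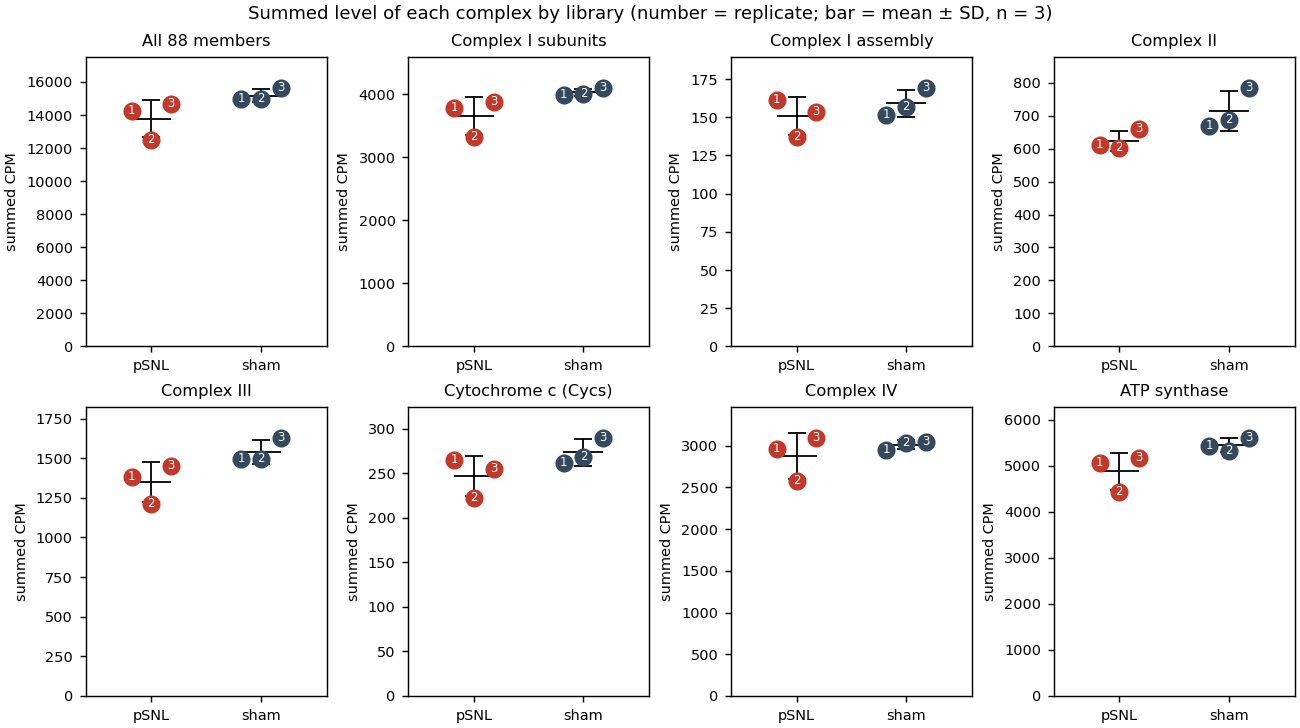
Summed CPM of the members of each complex in the 6 libraries, pSNL left and sham right, with each point numbered by its replicate and bars for mean ± SD (n = 3 each). The pSNL libraries lie below every sham library for all members together, complexes I, II and III and the ATP synthase, and overlap with sham for complex IV, Cycs and the complex I assembly factors.

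The libraries also differed in cell type markers, and the part of these differences in the results was not tested. The injury marker Atf3, a transcription factor of axotomised neurons, was at 97.4, 293 and 234 CPM in pSNL replicates 1, 2 and 3, against 11.4, 15.8 and 22.7 CPM in sham replicates 1, 2 and 3. The 17 neuronal markers summed to 49710.4 to 53531 CPM in pSNL and 50466 to 62453 CPM in sham, none of them at 0 in any library. They did not move together: 9 had a negative and 8 a positive log2 fold change, from -0.51 to 0.91. The 12 fibroblast and matrix markers summed to 4621 to 7609 CPM in pSNL and 2087 to 4145 CPM in sham. The highest fibroblast sum was in pSNL replicate 2, and the highest macrophage and Schwann cell myelin sums were in pSNL replicate 3 (648 and 33217 CPM). On the log2 scale the median neuronal marker differed from the sham mean by 0.071, -0.26 and -0.28 in pSNL replicates 1, 2 and 3. In sham replicates 1, 2 and 3 it differed by 0.06, 0.11 and -0.11. In whole ganglia, fewer cells of a type and less RNA of a gene per cell cannot be told apart. Sham replicate 3 carried central glia transcripts (2836 CPM over 12 markers, against 377 and 383 CPM in the other sham libraries), and both replicate 3 libraries carried skeletal muscle transcripts (1473 CPM in pSNL and 834 CPM in sham over 21 listed markers, against 35.7 to 40.6 CPM elsewhere). Without both replicate 3 libraries 0 members passed edgeR's threshold, where 102 of all tested genes did. In that fit 14 members had an unadjusted p under 0.05 and the median log2 fold change was -0.13. The share of all tested genes at that unadjusted p is not given here.

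Complex II had the member with the smallest p. It is the only complex of the chain that also works in the citric acid cycle, and all of its subunits are nuclear. Sdha, the flavoprotein that oxidises succinate (gene ID 157074), was at 225, 229 and 236 CPM in pSNL replicates 1, 2 and 3, against 282, 279 and 314 CPM in sham replicates 1, 2 and 3. The groups did not overlap, and the pSNL values lay close together, with 230.0 ± 5.20 CPM in pSNL and 292 ± 19.3 CPM in sham (SD, n = 3 each). This was a fitted log2 fold change of -0.34 with an SE of 0.081 (adjusted p = 0.0891, edgeR), and DESeq2 gave an adjusted p of 0.0278. Over all alternatives its adjusted p lay between 0.0278 and 0.278, and without pSNL replicate 2 its log2 fold change was -0.35. The other subunits showed smaller differences. The iron-sulphur subunit Sdhb was at 156, 156 and 172 CPM in pSNL replicates 1, 2 and 3, against 164, 165 and 177 CPM in sham replicates 1, 2 and 3, and its groups overlapped. Its log2 fold change was -0.065, with a 95% interval of -0.25 to 0.12. The membrane anchors Sdhc and Sdhd had log2 fold changes of -0.082 and -0.17 (edgeR adjusted p = 0.827 and 0.452). Sdhc was highest in sham replicate 3, at 163 CPM, and its other 5 values were 111 to 132 CPM. Together the 4 genes gave 611, 600.4 and 659 CPM in pSNL replicates 1, 2 and 3, against 669, 688 and 784 CPM in sham replicates 1, 2 and 3.

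In complex III all 9 members had a negative fold change, with a median of -0.17 on the log2 scale, and 4 of them were separated downward, where 10.4% of all tested genes were. Without pSNL replicate 2 the median was -0.089. Uqcrc2, a large core protein facing the matrix (gene ID 293448), was at 206, 186 and 211 CPM in pSNL replicates 1, 2 and 3, against 242, 229.6 and 303 CPM in sham replicates 1, 2 and 3. It had a fitted log2 fold change of -0.36 with an SE of 0.11 (adjusted p = 0.169, edgeR), the most negative value of any tested member, but sham replicate 3 stood above the other sham libraries, and without it the log2 fold change was -0.23. Its partner Uqcrc1 was at 317, 295 and 348 CPM in pSNL replicates 1, 2 and 3, against 353, 350.4 and 385 CPM in sham replicates 1, 2 and 3. The groups did not overlap, and pSNL replicate 3 came within a few CPM of the lowest sham value (edgeR adjusted p = 0.367). Cyc1, the haem protein that reduces cytochrome c, was at 240.5, 196 and 229.9 CPM in pSNL replicates 1, 2 and 3, against 258, 258 and 257 CPM in sham replicates 1, 2 and 3. The sham libraries were almost equal, and the pSNL libraries were lower and more spread (edgeR adjusted p = 0.3). Uqcrh, the hinge protein that helps cytochrome c dock, was the other separated member, with a log2 fold change of -0.20 (edgeR adjusted p = 0.426). The Rieske iron-sulphur protein Uqcrfs1 had a log2 fold change of -0.17, and the small subunits Uqcrq, Uqcrb, Uqcr10 and Uqcr11 of -0.16, -0.13, -0.052 and -0.015, with overlapping groups in each.

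Cytochrome c itself (Cycs, gene ID 25309), which also triggers caspase activation when it leaves the mitochondrion, was at 265, 222 and 255 CPM in pSNL replicates 1, 2 and 3, against 262, 269 and 290.1 CPM in sham replicates 1, 2 and 3. Only pSNL replicate 2 was well below the sham range, and the log2 fold change was -0.15 with a 95% interval of -0.35 to 0.057 (edgeR adjusted p = 0.481).

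Complex I is the largest of the complexes, with a set of core subunits that carry the flavin and the iron-sulphur clusters and a larger set of accessory subunits around them. Of its 34 subunits 32 had a negative fold change (median -0.12, and -0.066 without pSNL replicate 2). In 10 of them (29.4%) every pSNL value was under every sham value, where 10.4% of all tested genes were separated downward. Ndufs1, which holds several iron-sulphur clusters, was at 220.1, 213 and 206 CPM in pSNL replicates 1, 2 and 3, against 236, 252 and 246 CPM in sham replicates 1, 2 and 3. It was lower in each pSNL library by a similar amount, and its log2 fold change of -0.20 changed little without pSNL replicate 2 (-0.21; edgeR adjusted p = 0.259 over all 6 libraries). Ndufs3, a core subunit of the matrix arm, was at 99.4, 86.7 and 100.2 CPM in pSNL replicates 1, 2 and 3, against 118, 109 and 117 CPM in sham replicates 1, 2 and 3. Its highest pSNL value was below its lowest sham value (log2 fold change -0.26, edgeR adjusted p = 0.224). Ndufv1, the flavoprotein that takes electrons from NADH, was at 218, 196 and 214 CPM in pSNL replicates 1, 2 and 3, against 236, 232 and 249.1 CPM in sham replicates 1, 2 and 3, again without overlap (log2 fold change -0.19, edgeR adjusted p = 0.302). The core subunits Ndufs7, Ndufs8 and Ndufv2 had log2 fold changes of -0.19, -0.14 and -0.11 with overlapping groups. The summed level of all complex I subunits was 3783, 3317 and 3868 CPM in pSNL replicates 1, 2 and 3, against 3981, 4009 and 4096 CPM in sham replicates 1, 2 and 3.

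Among the accessory subunits Ndufa9, Ndufs4, Ndufb10, Ndufa10, Ndufa8 and Ndufb2 were separated downward (22.2%, against 10.4% of all tested genes). For Ndufa10 this depends on how reads were divided with Ndufa10l1, described below. Ndufa9, which lies near the quinone site, was at 140.2, 114 and 128 CPM in pSNL replicates 1, 2 and 3, against 148, 158 and 149 CPM in sham replicates 1, 2 and 3. Each pSNL value was under the sham range, most clearly in replicate 2, and its fitted log2 value was -0.25 (edgeR adjusted p = 0.253). Ndufs4, which is needed for a stable complex and whose loss causes Leigh syndrome in humans, had a log2 fold change of -0.24 (edgeR adjusted p = 0.287). Other accessory subunits differed little: Ndufa5, Ndufa7, Ndufa13, Ndufc2, Ndufs5 and Ndufb4 had log2 fold changes between -0.02 and 0.0065. Ndufa2 had the highest, 0.10, with a 95% interval of -0.15 to 0.35.

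Ndufa10l1 (gene ID 316632), a gene resembling the subunit gene Ndufa10, was the one member present in some libraries and absent from others at a substantial level. It had estimated counts of 156 and 206 in pSNL replicates 1 and 3 and of 378 in sham replicate 2, and was listed in none of the other 3 libraries. Presence did not follow the operation, so no fold change is read from it. Ndufa10 was at 267, 264 and 261 CPM in pSNL replicates 1, 2 and 3, against 294, 289.6 and 294 CPM in sham replicates 1, 2 and 3, with each pSNL library lower by a similar step. The counts of Ndufa10 carried decimals in the same 3 libraries that listed Ndufa10l1 and were whole in the other 3. In each of the libraries that listed both genes, their counts add to a whole number, as when reads are shared out between them. With the pair added together, the pSNL and sham libraries overlap, so the separation of Ndufa10 depends on this division. How the estimate divided the reads is not stated in the labels or headers, so both levels are uncertain.

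**Figure D2:**
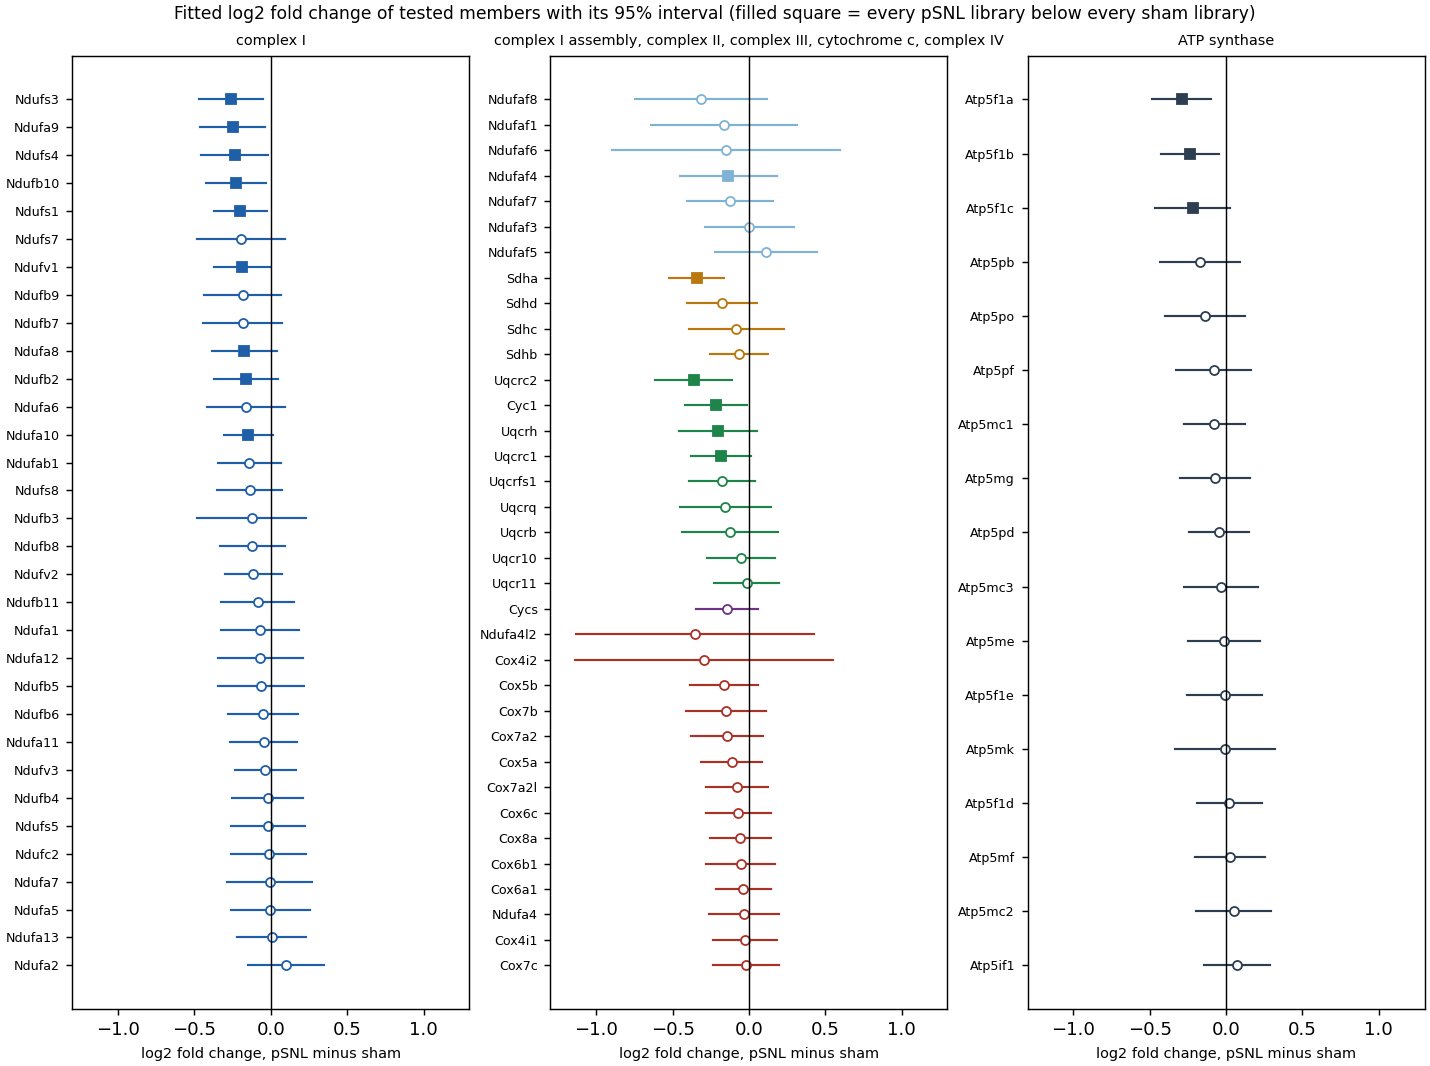
Fitted log2 fold change (pSNL minus sham) of 84 tested members with 95% intervals, by complex and in order within each complex. Filled squares mark the 18 of them that were separated downward. They include Sdha, 4 complex III genes, 9 complex I subunits and Atp5f1a to Atp5f1c, and complex IV has none.

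The 7 complex I assembly factors, which build the complex and then leave it, were expressed far below the subunits, at 9.55 to 28.3 FPKM over the 6 libraries (the per-length unit of the deposited tables), where the subunits other than Ndufa10l1 lay between 44.4 and 245 FPKM. Their log2 fold changes ran from -0.31 for Ndufaf8 to 0.11 for Ndufaf5, and their intervals were wide (for Ndufaf8 -0.75 to 0.12). Ndufaf4 was separated downward by a small step, at 17.9, 19.1 and 19.4 CPM in pSNL replicates 1, 2 and 3, against 20.3, 19.5 and 22.2 CPM in sham replicates 1, 2 and 3 (edgeR adjusted p = 0.696). Ndufaf7, a methyltransferase, had a log2 fold change of -0.12.

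Complex IV held no member that separated the groups. Of its 14 tested members all 14 had a negative fold change, the median was -0.073 (-0.011 without pSNL replicate 2), and 0 had an unadjusted p under 0.05 in edgeR's test (DESeq2 called 0). Cox4i1, the ubiquitous form of the largest nuclear subunit, was at 446, 379 and 466 CPM in pSNL replicates 1, 2 and 3, against 436, 425 and 455 CPM in sham replicates 1, 2 and 3. The groups overlapped, and 2 pSNL libraries were above 2 of the sham libraries. Its log2 fold change was -0.027, with a 95% interval of -0.24 to 0.18. Cox6a1 and Cox8a, the liver-type forms expressed in most tissues, had log2 fold changes of -0.036 and -0.058, Cox6b1 of -0.054 and Ndufa4 of -0.031. Cox5b, which binds zinc, had the lowest p among the complex IV members and was at 196, 159 and 191 CPM in pSNL replicates 1, 2 and 3, against 194, 198 and 218 CPM in sham replicates 1, 2 and 3. Only pSNL replicate 2 lay clearly under the sham range (log2 fold change -0.16, edgeR adjusted p = 0.479). It was followed by Cox7a2 at -0.14 and Cox7b at -0.15, and Cox7a2l, which helps join complexes III and IV into supercomplexes, was at -0.078.

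The tissue-restricted forms of complex IV were near the limit of detection. The lung and hypoxia form Cox4i2 was at 2.94, 2.31 and 2.74 CPM in pSNL replicates 1, 2 and 3, against 2.97, 4.58 and 2.29 CPM in sham replicates 1, 2 and 3, which is 10 to 20 counts per library. Ndufa4l2, which hypoxia induces, had 13, 13 and 21 counts in pSNL replicates 1, 2 and 3, against 15, 20 and 25 counts in sham replicates 1, 2 and 3. The groups overlapped for both genes. Cox6b2, known as a testis form, had 1 to 6 counts per library and did not pass the filter on low counts. Cox8b, the heart and muscle form, did not pass it either and had 2, 0 and 13 counts in pSNL replicates 1, 2 and 3, against 2, 0 and 6 counts in sham replicates 1, 2 and 3. Its muscle partner Cox6a2 was listed in only 2 files, and so is no member, with 31 counts in pSNL replicate 3 and 16 counts in sham replicate 3. Both muscle forms were thus highest in the 2 libraries that carried the muscle transcripts.

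The ATP synthase held the most abundant member. Atp5f1b, the catalytic beta subunit of the F1 head (gene ID 171374), averaged 1013 FPKM over the 6 libraries, above Cox6a1 (759), Cox8a (687) and Cox4i1 (646 FPKM). In CPM it was at 1669, 1529 and 1705 CPM in pSNL replicates 1, 2 and 3, against 1953, 1853 and 1969.5 CPM in sham replicates 1, 2 and 3. All pSNL libraries were lower, and it had a fitted log2 fold change of -0.24 with an SE of 0.086 (adjusted p = 0.228, edgeR). Atp5f1a, the alpha subunit that alternates with it in the ring (gene ID 65262), was at 877, 793 and 878 CPM in pSNL replicates 1, 2 and 3, against 992, 1021 and 1102 CPM in sham replicates 1, 2 and 3. The groups were again separated, with 849 ± 48.7 CPM in pSNL and 1039 ± 57.2 CPM in sham (SD, n = 3 each). It had a fitted log2 fold change of -0.29 with an SE of 0.086 (adjusted p = 0.151, edgeR), which DESeq2 called at an adjusted p of 0.0363. The log2 fold change without pSNL replicate 2 was -0.25. The gamma subunit Atp5f1c, the rotor shaft, was at 234, 181 and 239 CPM in pSNL replicates 1, 2 and 3, against 248, 246 and 267 CPM in sham replicates 1, 2 and 3. It was separated too, with pSNL replicate 2 far below the rest (log2 fold change -0.22, edgeR adjusted p = 0.38).

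The rest of the enzyme did not show this. The 12 members outside the F1 head had a median log2 fold change of -0.04 and none was separated, against -0.22 for the 5 F1 genes. Without pSNL replicate 2 these medians were 0.033 and -0.11. F1 subunits delta and epsilon, Atp5f1d and Atp5f1e, were at 0.022 and -0.0085. The difference between the F1 genes and the others was not tested. The 3 genes for subunit c, whose ring carries the protons and whose mature protein is the same from each gene, were at -0.077 (Atp5mc1), 0.05 (Atp5mc2) and -0.034 (Atp5mc3). Of the peripheral stalk genes, Atp5pb and Atp5po were at -0.17 and -0.14, and Atp5pd and Atp5pf at -0.047 and -0.081. Atp5if1, the inhibitor that blocks ATP hydrolysis, was at 202, 169 and 214 CPM in pSNL replicates 1, 2 and 3, against 182, 189 and 186 CPM in sham replicates 1, 2 and 3. It was above all sham libraries in pSNL replicates 1 and 3 and below them in pSNL replicate 2 (log2 fold change 0.072, 95% interval -0.15 to 0.29). For the whole ATP synthase the median was -0.047, and 0.018 without pSNL replicate 2.

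**Figure D3:**
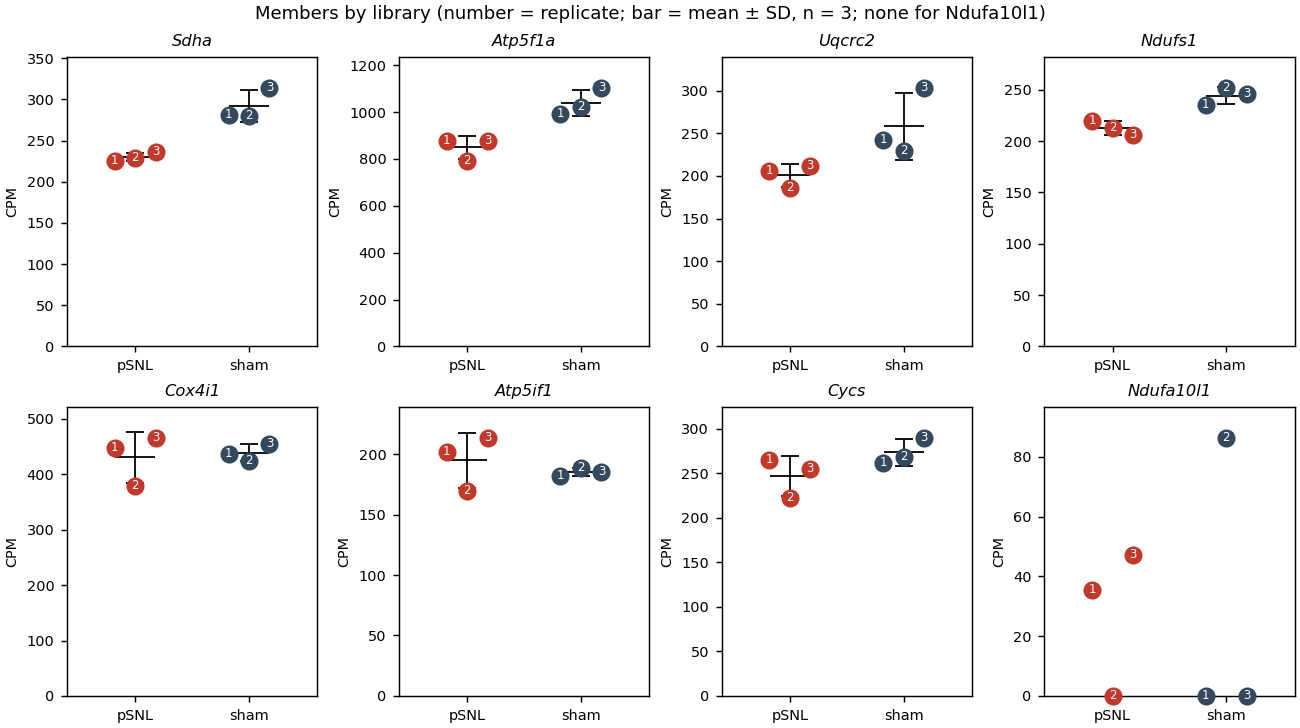
Level in CPM of 8 members in each library, pSNL left and sham right, numbered by replicate, with mean ± SD (n = 3 each) except for Ndufa10l1. Sdha, Atp5f1a, Uqcrc2 and Ndufs1 are lower in each pSNL library, Cox4i1, Atp5if1 and Cycs overlap between groups, and Ndufa10l1 has no row in 3 libraries, which are drawn at 0.

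Members with a longer transcript tended to have the more negative fold change. By the deposited gene length, the 41 tested members of up to 700 bases had a median log2 fold change of -0.054, the 31 between 700 and 1500 bases -0.14, and the 14 above 1500 bases -0.20. Other tested genes of these lengths had medians of 0.06, -0.012 and -0.00072. Across the 86 members Spearman's rho between length and log2 fold change was -0.48, and -0.52 to -0.38 with 1 library left out, against 0.085 across the 11005 other tested genes. Genes are not independent replicates and all share the same 6 libraries. The core subunits Ndufs1, Ndufs3 and Ndufv1, Sdha, the Uqcrc pair and Atp5f1a to Atp5f1c are all above the median length of tested members. Whether subunit role or transcript length goes with the fold change was not tested, and longer genes carry more counts at a given level.

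**Figure D4:**
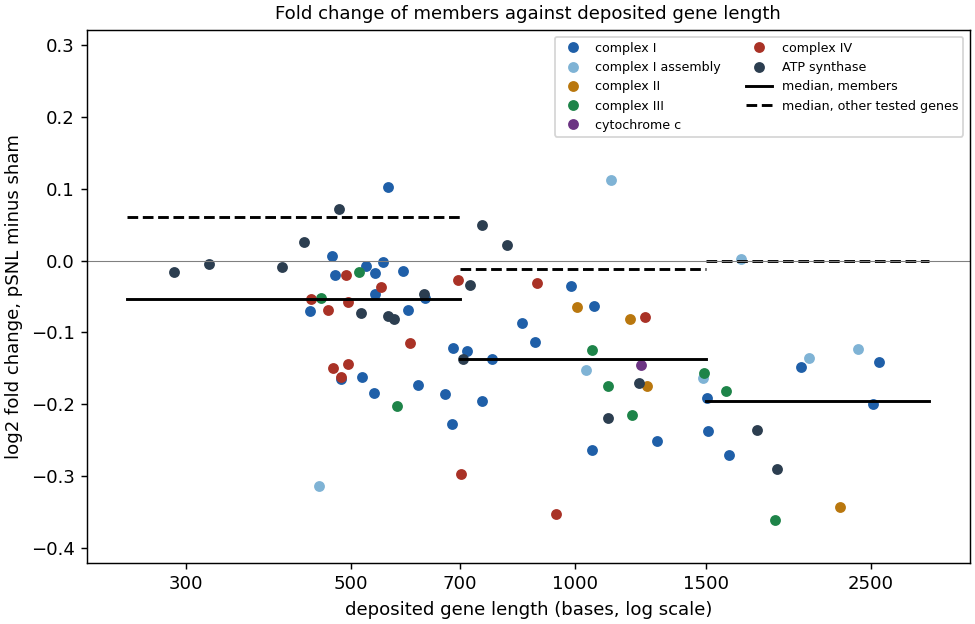
Log2 fold change (pSNL minus sham) of 85 tested members against the deposited gene length on a log axis, coloured by complex, with Ndufa10l1 left out. Solid lines are medians of all 86 tested members and dashed lines medians of the other tested genes in 3 length ranges, and the member medians fall with length to -0.20.

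Some member promoters hold motifs of known regulators of mitochondrial genes. NRF1, the ETS factor GABPA, YY1 and Sp1 are known to bind such promoters. RefSeq promoter sequences (assembly GRCr8, 250 bases before to 50 after each start) were found for 76 of the 88 members. The NRF1 core GCGCATGCG, searched on both strands, was in 9 of them (11.8%), in 3.24% of promoters of tested genes and in 1.52% of all 33469 promoters. With any middle base (GCGCANGCG, a form that includes the first, chosen after the sequences were seen) the shares were 26.3%, 13.1% and 5.80%. The YY1 core AAGATGGCG was in 10 member promoters (13.2%, against 3.62% for tested genes and 1.73% for all) and the ETS core CCGGAAGT in 8 (10.5%, against 8.23% and 3.81%). The Sp1 core GGGGCGGGG was in 4 (5.26%, against 20.4% and 9.73%). Members with the NRF1 core had a median log2 fold change of -0.073 (n = 9) and tested members without it -0.11 (n = 65). With the ETS core it was -0.17 (n = 8) and without it -0.084 (n = 66), and with the YY1 core -0.17 (n = 10) and without it -0.084 (n = 64).

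The 150 bases before the start are shown for 4 members: Sdha and Atp5f1a, which DESeq2 called, Uqcrc1, which was separated downward, and Atp5mc2, whose fold change was positive. Capitals mark the motifs above that lie wholly within these bases. They are at chr1:30764403-30764552, strand + for Sdha, chr18:73567387-73567536, strand + for Atp5f1a, chr8:118468073-118468222, strand + for Uqcrc1 and chr7:135678219-135678368, strand - for Atp5mc2 (GRCr8).
Sdha: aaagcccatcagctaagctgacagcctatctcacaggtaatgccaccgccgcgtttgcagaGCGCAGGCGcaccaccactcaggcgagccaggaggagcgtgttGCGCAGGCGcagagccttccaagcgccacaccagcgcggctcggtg
Atp5f1a: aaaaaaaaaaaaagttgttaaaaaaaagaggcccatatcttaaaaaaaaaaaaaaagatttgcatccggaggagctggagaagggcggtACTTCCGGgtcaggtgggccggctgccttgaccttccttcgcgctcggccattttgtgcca
Uqcrc1: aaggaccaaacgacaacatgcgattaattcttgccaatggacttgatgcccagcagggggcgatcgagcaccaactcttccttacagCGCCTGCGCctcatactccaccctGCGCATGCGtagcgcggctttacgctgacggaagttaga
Atp5mc2: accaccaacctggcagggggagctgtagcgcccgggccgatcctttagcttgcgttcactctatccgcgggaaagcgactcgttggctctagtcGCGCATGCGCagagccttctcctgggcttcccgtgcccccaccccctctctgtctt

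Sdha holds GCGCANGCG in these bases at -89 and -46 from the start, Atp5f1a the ETS core at -61 on the other strand, and Uqcrc1 the NRF1 core at -39 with GCGCANGCG on the other strand at -63. Atp5mc2 holds the NRF1 core on both strands in overlapping positions. A match is a description of these letters and not a bound site.

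Other genes of energy metabolism were read from lists, and none had a member past edgeR's threshold in either direction. The 20 genes of pyruvate oxidation and the citric acid cycle, which feed the chain, gave these counts: 18 had a negative fold change, 10 had an unadjusted p under 0.05 as lower and 13 were separated downward, with a median of -0.18. Over all tested genes 50.6% were negative, 6.07% were lower at an unadjusted p under 0.05 in edgeR's test and 10.4% were separated downward. On the log2 scale their median distance to the sham mean came to -0.14, -0.26 and -0.16 in pSNL replicates 1, 2 and 3, against -0.023, 0.0094 and 0.0077 in sham replicates 1, 2 and 3, so all pSNL libraries lay below all sham libraries. Idh3a, the catalytic subunit of NAD-dependent isocitrate dehydrogenase, was at 263, 254 and 239.9 CPM in pSNL replicates 1, 2 and 3, against 287, 315 and 307 CPM in sham replicates 1, 2 and 3. Each pSNL value was under the sham range (log2 fold change -0.26 ± 0.08, SE; edgeR adjusted p = 0.158). Sucla2, of succinyl-CoA synthetase, and Pdhb, of pyruvate dehydrogenase, were at -0.26 and -0.26 on the log2 fold change scale (edgeR adjusted p = 0.173 and 0.207).

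Of 42 tested assembly factors outside the members, 34 were negative and 5 were lower and 1 higher at an unadjusted p under 0.05 in edgeR's test (DESeq2 called 0), with a median of -0.12. The lower ones are 11.9% of the list, against 6.07% lower and 9.41% higher over all tested genes. Coa4, a complex IV assembly factor, was at 7.02, 7.84 and 6.18 CPM in pSNL replicates 1, 2 and 3, against 14.4, 10.3 and 13.3 CPM in sham replicates 1, 2 and 3. It was separated downward at a low level (log2 fold change -0.85 ± 0.23, SE; edgeR adjusted p = 0.123). The 70 mitochondrial ribosome genes had a median of -0.089, with 54 negative, and the 23 import genes -0.14, with 17 negative. In the import list Timm29, of the inner membrane carrier translocase, was at 128, 123 and 133 CPM in pSNL replicates 1, 2 and 3, against 168, 165 and 155 CPM in sham replicates 1, 2 and 3 (edgeR adjusted p = 0.0891). Carriers and uncoupling proteins (11 tested) had a median of -0.13. Among them the ubiquitous mitochondrial creatine kinase Ckmt1 was at 442, 312 and 418 CPM in pSNL replicates 1, 2 and 3, against 478, 505 and 515 CPM in sham replicates 1, 2 and 3 (edgeR adjusted p = 0.209). In these 4 lists, as in the members and the citric acid cycle list, the median was lowest in pSNL replicate 2. The assembly factor, import and carrier lists also had every pSNL median below every sham median. For the assembly factors these were -0.042, -0.21 and -0.034 in pSNL replicates 1, 2 and 3, against 0.021, 0.0038 and 0.0066 in sham replicates 1, 2 and 3. In the ribosome list the groups overlapped.

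Glycolysis had a median of -0.037 over 21 genes, with 12 negative, and the difference between it and the members was not tested. Of the 21, 6 (28.6%) were separated downward and 3 (14.3%) were lower at an unadjusted p under 0.05 in edgeR's test, against 22.1% and 14.0% of the members. Over all tested genes these shares were 10.4% and 6.07%. At the same unadjusted p 1 of the 21 was higher, where 9.41% of all tested genes were. Pfkm, the muscle-type phosphofructokinase, was at 466, 421 and 467 CPM in pSNL replicates 1, 2 and 3, against 552, 536 and 582 CPM in sham replicates 1, 2 and 3. It was separated downward, and DESeq2 called it (adjusted p = 0.0334; edgeR adjusted p = 0.126). The neuronal glucose transporter Slc2a3 was at 44.6, 56.7 and 42.5 CPM in pSNL replicates 1, 2 and 3, against 34.3, 36.8 and 38.0 CPM in sham replicates 1, 2 and 3, with each pSNL library above each sham library (edgeR adjusted p = 0.203).

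Of 19 tested regulators of mitochondrial biogenesis, 1 (5.26%) was lower at an unadjusted p under 0.05 in edgeR's test, near the 6.07% over all tested genes, and DESeq2 called 0. This was Esrra, a nuclear receptor that drives respiratory chain genes, at 64.5, 64.6 and 66.1 CPM in pSNL replicates 1, 2 and 3, against 86.6, 78.7 and 81.6 CPM in sham replicates 1, 2 and 3. The groups did not overlap and the pSNL values were almost equal (log2 fold change -0.34 ± 0.09, SE; edgeR adjusted p = 0.116). Esrra was the only regulator of the 19 separated downward (5.26%), against 10.4% of all tested genes. Nrf1, which binds the motif above, was at 8.83, 13.4 and 10.5 CPM in pSNL replicates 1, 2 and 3, against 7.32, 12.6 and 8.71 CPM in sham replicates 1, 2 and 3, and its groups overlapped. Gabpa, which binds the ETS core, had a log2 fold change of 0.25, Tfam, the mitochondrial DNA packaging factor, of -0.11, and the coactivator Ppargc1a, at 0.686 to 4.08 CPM in pSNL and 2.29 to 3.21 CPM in sham, of -0.16 (edgeR adjusted p = 0.434, 0.755 and 0.917).

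**Figure D5:**
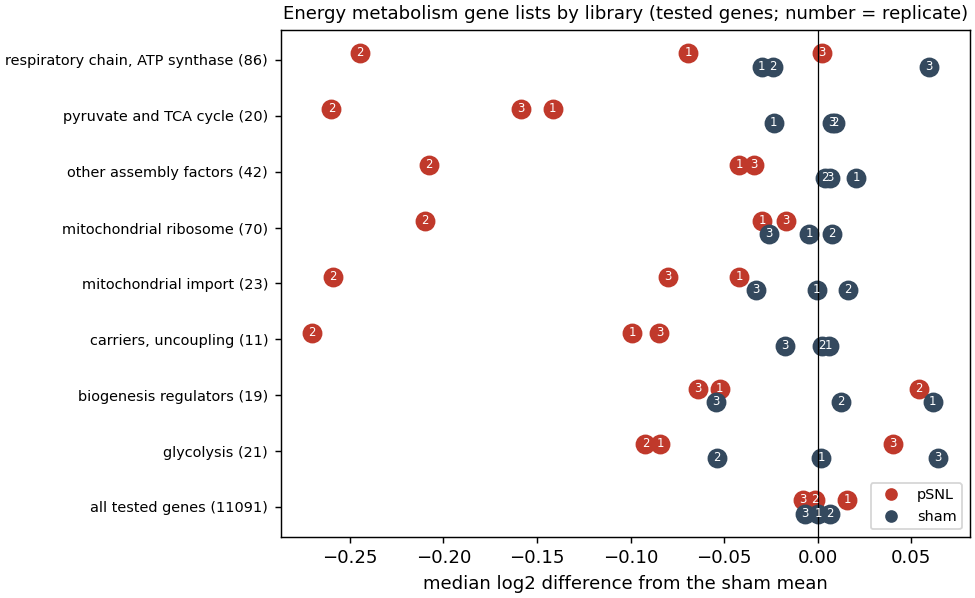
Median log2 difference from the sham mean in each library, pSNL above sham in each row, for the members, 7 other lists and all tested genes, with the number of tested genes in brackets and points numbered by replicate. In the members the median is -0.24 in pSNL replicate 2, against -0.069 and 0.0024 in pSNL replicates 1 and 3. All pSNL medians are below all sham medians for pyruvate and citric acid cycle genes, other assembly factors, import and carriers.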

How the data were processed

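RNA from dorsal root ganglia of 6 rat samples was sequenced from libraries made with a BGISEQ-500 kit from 1 µg of total RNA, per the labels' protocols, which also name Illumina preparation. Each library has its own table, whose columns are gene length, expected count and FPKM, per the file headers. The deposited expected counts are the authors' estimates, and 89.1% to 89.6% of them were whole. The deposited FPKM values are the authors' and scale these counts by the full gene length. CASAVA 1.4 and Bowtie2 are listed in the submitters' processing notes. The counting program, build, annotation and strand setting were not given in the sources used here. Genes missing from 1 table entered as 0.

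Gene IDs were matched to symbols in the RefSeq table of GRCr8 (14227 by gene ID, 16 by transcript accession, 103 unmatched). Of 89 listed genes that fit the symbol pattern 88 were in at least 3 files. A further 33 RefSeq symbols that fit it were matched to no listed gene. They include Ndufs6, Ndufa3, Ndufb1, Ndufc1 and Ndufaf2, so the summed levels lack these genes. Expected counts were rounded and fitted in edgeR 4.0.16 (R 4.3.3) with TMM factors, edgeR's own low-count filter, robust dispersion, the quasi-likelihood test and Benjamini-Hochberg adjustment over all tested genes at 0.05. Standard errors and 95% intervals were derived from the test statistic. DESeq2 1.42.0 was an alternative. CPM values were scaled with the same TMM factors, and the log2 difference per library used log2 CPM with a prior count of 2. FPKM served to compare levels between genes; it uses the full length, which understates short genes. Fits were tested on simulated data. Alternatives were other size factors, no filter, no robust fit, a replicate block and leaving out each library. Genes were named where they had 1 of the 3 smallest p-values or the highest FPKM in a complex, belonged to an isoform pair, or missed a file or the filter; others were named after their values were seen. The result for 1 member is not reported here. Members, lists and tests were chosen with earlier results of these data known. Summed levels of further lists are macrophages 375 to 648 CPM in pSNL and 230.3 to 344 CPM in sham, Schwann cell myelin 21305 to 33217 CPM in pSNL and 18946 to 27385 CPM in sham, satellite glia 7426 to 8967 CPM in pSNL and 8952 to 13969 CPM in sham, vessels 371 to 410.3 CPM in pSNL and 335 to 395 CPM in sham, red cells 1470.5 to 6766 CPM in pSNL and 3729 to 9069 CPM in sham, fat cells 15.6 to 24.7 CPM in pSNL and 7.09 to 14.0 CPM in sham, hypoxia targets 1129 to 1268 CPM in pSNL and 1232 to 1312 CPM in sham.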

Additional observations from a re-analysis of the deposited data

How the results depend on the processing

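The count of members past the threshold was 0 in edgeR's test under every alternative run and 2 with DESeq2. The count over all genes was 51, and 89 without the filter on low counts, 320 with DESeq2, 102 without both replicate 3 libraries (chosen after seeing the data) and 5 to 217 with 1 library left out (217, 9 and 96 without pSNL replicates 1, 2 and 3, 21, 5 and 33 without sham replicates 1, 2 and 3). The median log2 fold change of members lay between -0.16 without pSNL replicate 3 and -0.032 without pSNL replicate 2, and was -0.087 without assembly factors and restricted isoforms. Without pSNL replicate 2 the medians of complexes I to IV and the ATP synthase were -0.066, -0.082, -0.089, -0.011 and 0.018, against -0.12, -0.13, -0.17, -0.073 and -0.047 with all libraries. Library medians from FPKM were -0.045, -0.24 and -0.011 in pSNL replicates 1, 2 and 3. With 1 library left out the log2 fold change could take either sign for 39 of 86 members, none of them called. Among the 35 named by the rule there were 9: Atp5mc2 -0.033 to 0.14, Atp5mc3 -0.11 to 0.048, Cox4i1 -0.092 to 0.051, Cox4i2 -0.50 to 0.015, Cox6a1 -0.074 to 0.012, Cox6b1 -0.15 to 0.020, Ndufa4 -0.10 to 0.049, Uqcr10 -0.14 to 0.0074, and Ndufa10l1. The fitted values of Ndufa10l1 (-0.71 to 9.91, and 1.47 with the replicate block) rest on 3 libraries without a row for it and are not measured folds. The cause of these changes was not tested.

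The replicate number is shared between groups. As a block it gave 111 genes past the threshold and 0 members. Deviations from the group means correlated by 0.032, 0.011 and 0.12 between samples numbered 1, 2 and 3 and by -0.10 to 0.10 between samples of different number, so the numbers were not taken as pairs. Before TMM scaling a level of 1 CPM stood for 4.31 (sham replicate 3) to 4.42 (pSNL replicate 3) counts, which limits the precision of Cox4i2, Ndufa4l2 and the assembly factors.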
